A study of Mus musculus with 9 samples.

Results

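The genes described here make ribosomes: subunits and initiation factors of RNA polymerase I, the enzyme that transcribes the precursor of ribosomal RNA, and the nucleolar proteins that modify, cut and assemble that RNA. The set was given as 43 mouse gene symbols, and 42 of them had a probe set under that symbol among the 20672 genes measured. Npm3 was the 1 symbol without a probe set of that name, and it was not analysed here. Each gene was read from the probe set with the highest mean over the 9 arrays.

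The samples were MEFs, fibroblasts taken from mouse embryos, kept in DMEM and profiled as total RNA on Affymetrix arrays. All 9 samples carried a short hairpin RNA (shRNA). In the 3 shGFP samples the hairpin was against GFP, a jellyfish protein that serves as a control target, and in the 3 shFoxk1 samples it was against Foxk1, a forkhead transcription factor. The 3 samples labelled rescue carried the Foxk1 hairpin plus Foxk1. The labels state neither the vector, the form of the added Foxk1, the number of hairpins, nor the strain and age of the embryos. They do not say whether the replicates came from separate cultures, and each p-value therefore measures a spread that may be technical.

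Making a ribosome starts in the nucleolus, where RNA polymerase I, brought to the ribosomal DNA by Rrn3 and Ubtf, transcribes a long precursor RNA. Small nucleolar ribonucleoproteins (snoRNPs) methylate and pseudouridylate the precursor, and successive assembly complexes fold and cut it into the RNAs of the small and the large subunit. The work scales with growth, and MYC is known as an activator of many of these genes in dividing cells such as fibroblasts.

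Stretches of promoter are shown for 9 of the genes, namely 5 of the 6 genes that fell in the results that follow and 4 others with the searched motif near the start. They run from 70 bases before the annotated start to 30 bases after it, 5′ to 3′ along the gene's strand, and come from RefSeq on GRCm38.p6. Capitals mark CACGTG, the E-box that MYC and MAX bind, which reads the same on both strands.
Nop56, chr2:130274342-130274441, plus strand: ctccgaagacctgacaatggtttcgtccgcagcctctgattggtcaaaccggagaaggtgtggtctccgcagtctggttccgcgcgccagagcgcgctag
Nop14, chr5:34660119-34660218, minus strand: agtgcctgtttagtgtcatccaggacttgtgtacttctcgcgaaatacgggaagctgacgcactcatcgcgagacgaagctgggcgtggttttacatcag
Nop16, chr13:54590045-54590144, minus strand: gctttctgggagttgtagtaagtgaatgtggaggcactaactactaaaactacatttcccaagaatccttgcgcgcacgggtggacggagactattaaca
Tsr1, chr11:74898010-74898109, plus strand: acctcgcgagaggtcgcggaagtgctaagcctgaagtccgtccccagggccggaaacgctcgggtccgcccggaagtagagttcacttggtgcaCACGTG
Wdr43, chr17:71616145-71616244, plus strand: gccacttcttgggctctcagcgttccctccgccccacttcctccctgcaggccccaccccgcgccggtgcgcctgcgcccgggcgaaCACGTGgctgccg
Nop2, chr6:125131813-125131912, plus strand: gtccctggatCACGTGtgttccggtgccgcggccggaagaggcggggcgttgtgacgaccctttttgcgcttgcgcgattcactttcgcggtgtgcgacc
Utp18, chr11:93885737-93885836, minus strand: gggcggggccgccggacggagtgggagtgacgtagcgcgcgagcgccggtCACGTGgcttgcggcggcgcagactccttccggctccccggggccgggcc
Pes1, chr11:3963905-3964004, plus strand: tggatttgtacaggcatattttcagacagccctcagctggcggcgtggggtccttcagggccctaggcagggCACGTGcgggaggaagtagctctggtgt
Rrn3, chr16:13780629-13780728, plus strand: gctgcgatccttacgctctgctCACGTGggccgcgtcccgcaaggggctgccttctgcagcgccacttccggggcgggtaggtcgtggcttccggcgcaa

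The table of promoters held an entry for 37 of the 42 genes and none for Fbl, Rrp12, Bop1, Rrs1 and Npm1. In windows from 250 bases before to 50 bases after the start, CACGTG was present in 8 of the 37 genes, beside 8.09% of all 27025 genes in the table. Counting the first transcribed base as 1 and the base before it as -1, the motif began at -215 and -48 in Rrn3, at -60 in Nop2, at -20 in Utp18 and at 3 in Pes1. It began at 18 in Wdr43, 25 in Tsr1, 38 in Utp20 and 41 in Mybbp1a. The forkhead core GTAAACA, searched on both strands, was found in 1 of the 37, Rrp1b, at -197, beside 4.05% of all genes. The 2 motifs share no overlapping match in these windows, and a match is a description of letters, not of binding.

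Foxk1 checks the labels. Its brightest probe set read 8.98, 8.89 and 8.95 on the shGFP arrays, 7.75, 7.96 and 7.74 on the shFoxk1 arrays and 8.04, 7.77 and 7.76 on the arrays labelled rescue (log2 values). Foxk1 was lower in shFoxk1 by 2.18-fold (log2 change -1.12, SE 0.08, limma adjusted p = 5.18e-05), and the arrays labelled rescue lay at the shFoxk1 level (log2 change 0.04, adjusted p = 0.869, and -0.05 without rescue array 1). None of the 3 Foxk1 probe sets passed the test between rescue and shFoxk1. The dimmest, 1421759_a_at, read 4.89, 4.93 and 4.92, then 4.92, 4.66 and 4.85, then 4.96, 4.94 and 5.04, so all its rescue values lay above all its shFoxk1 values (0.17, limma adjusted p over all probe sets = 0.341). The part of the transcript each set covers was not known here, and every direction below is for arrays labelled rescue. Arrays of a group correlated at 0.998 to 0.999 over all genes. Of the 10 fibroblast markers 9 lay above the median level of all genes, all but Lum, while 2 of 7 epithelial, 1 of 8 macrophage and blood, 0 of 6 endothelial, 1 of 6 myoblast and 0 of 6 pluripotent and germ cell markers did. In bulk RNA, fewer cells of a type and less RNA per cell cannot be told apart, and because the authors' method gives all arrays nearly the same distribution, a change of total RNA per cell would not show.

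In rescue against shGFP, 6 of the 42 ribosome biogenesis genes fell by a small amount, 36 did not pass, and 0 rose past the test (adjusted p under 0.05 in limma, Benjamini-Hochberg over all 20672 genes): Rrp12, Nop14, Tsr1 and Wdr43 of the small subunit, Nop16 of the large subunit and Nop56 of the box C/D snoRNPs. Among all genes 2.54% were called lower and 2.5% higher in that comparison, and lower were 4.9% of the 5776 genes whose mean level lay in the range of these genes. The folds were small, from 1.13-fold for Nop56 to 1.23-fold for Rrp12. At an unadjusted p under 0.05, 21 were lower and 0 higher, beside 8.13% lower and 9.84% higher of all genes and 15.3% lower in the same range of levels. The mean was lower in 38 of the 42 genes, beside 43% of all genes and 52.6% in the same range of levels, and the median log2 change was -0.13, beside 0.018 over all genes. All 3 rescue values lay below all 3 shGFP values in 26 of the 42, beside 10.3% of all genes and 22% of genes in the same range of levels, and 0 of 42 lay wholly above, beside 12% of all genes.

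Neither step on its own gave a call. In shFoxk1 against shGFP, 0 of the 42 genes passed in limma in either direction (smallest adjusted p = 0.0875, Wdr43), beside 1.97% of all genes called higher and 2.26% lower, and 3.79% lower of those in the same range of levels. At an unadjusted p under 0.05, 8 were lower and 0 higher, beside 8.34% lower and 8.46% higher of all genes and 12.7% lower in the same range of levels. Their mean was lower in 28 of 42, beside 48.8% of all genes and 49.2% in the same range of levels, with a median log2 change of -0.03. The groups lay apart downward in 13 of 42 (10.4% of all genes, 17% of those in the same range of levels) and upward in 1, Dkc1 (11.6% of all genes).

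In rescue against shFoxk1, 0 of the 42 passed in limma in either direction (smallest adjusted p = 0.109, Ftsj3), beside 0.653% of all genes called higher and 0.3% lower, and 0.467% lower of those in the same range of levels. At an unadjusted p under 0.05, 13 were lower and 0 higher, beside 5.85% lower and 7.95% higher of all genes and 10.1% lower in the same range of levels. The mean was lower in 36 of 42, beside 44.7% of all genes and 56.6% of genes in the same range of levels, and the median was -0.06. The groups lay apart downward in 17 of 42 (7.17% of all genes, 15.2% in the same range of levels) and upward in 0 (8.46% of all genes). The 3 comparisons share arrays, since shGFP and shFoxk1 arrays each enter 2 of them, so their values are set side by side and not counted as separate support.

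**Figure D1:**
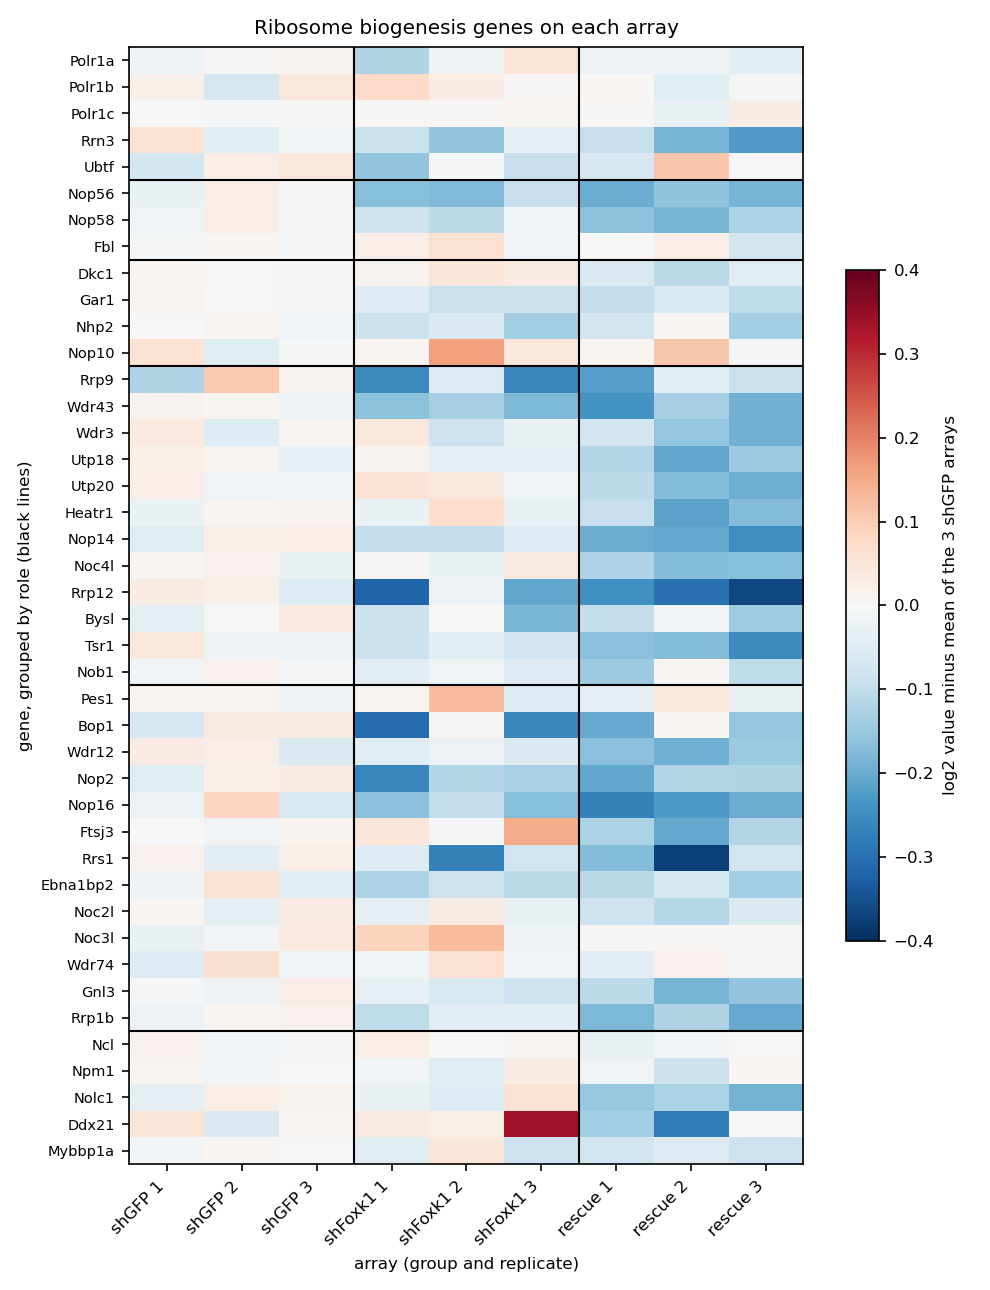
Heat map of the 42 genes (rows, grouped by role with black lines: RNA polymerase I, box C/D, box H/ACA, small subunit, large subunit, abundant nucleolar proteins) on the 9 arrays (columns). Colour is the log2 value minus the mean of the 3 shGFP arrays. Most cells on the 3 rescue arrays are below the shGFP mean, and the shFoxk1 arrays hold both colours.

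Array by array, the median deviation of the 42 genes from their own means was 0.0449, 0.0570 and 0.0439 on the shGFP arrays. It was 0.0021, 0.0236 and 0.0087 on the shFoxk1 arrays and -0.0496, -0.0535 and -0.0646 on the arrays labelled rescue. The shGFP arrays were highest, the rescue arrays lowest and the shFoxk1 arrays between them, with no overlap. Genes in the same range of levels deviated by -0.0181 to 0.0200 at the median over the 9 arrays, and all genes by -0.0092 to 0.0107. Of the 42 genes, 5 to 7 were below their own mean on each shGFP array, 12 to 20 on each shFoxk1 array and 32 to 40 on each rescue array.

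**Figure D2:**
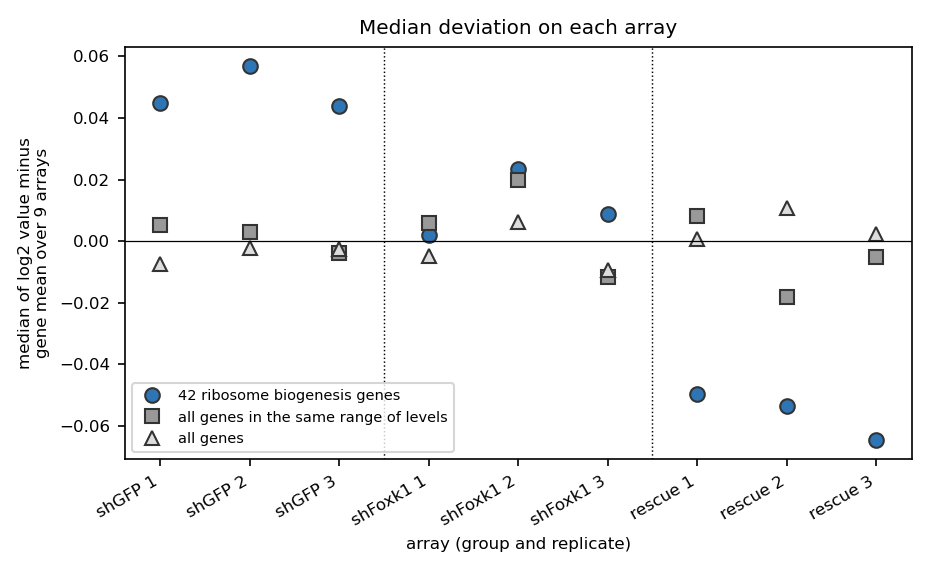
Median over genes of the log2 value minus the gene's mean over 9 arrays (vertical axis) for each array (horizontal axis), for the 42 ribosome biogenesis genes (circles), all 5776 genes in the same range of mean levels (squares) and all genes (triangles). The circles run from 0.0570 on shGFP array 2 to -0.0646 on rescue array 3, while squares and triangles stay between -0.0181 and 0.0200.

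Other measures moved with the groups too. The mean level of the 10 fibroblast markers was 10.96 to 10.99 on the shGFP arrays, 11.003 to 11.027 on the shFoxk1 arrays and 11.09 to 11.17 on the rescue arrays, and 3 of them were called in some comparison. The mean of the 7 epithelial markers, of which Epcam and Krt18 lay above the median level, was 5.503 to 5.569, 5.53 to 5.61 and 5.63 to 5.75. The lists of macrophage and blood, endothelial, myoblast, and pluripotent and germ cell markers each overlapped between shGFP and rescue, apart from the endothelial list (4.73 to 4.81 against 4.84 to 4.87), all of whose 6 genes lay below the median level. Rescue array 2 had the narrowest spread of values (interquartile range 3.66, others 3.72 to 3.78). The part of these measures in the shift of the ribosome biogenesis genes was not tested.

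Of the patterns over both steps, 22 of the 42 genes were lower at each step in the mean, 14 were higher in shFoxk1 and then lower in rescue, 6 were lower and then higher, and 0 were higher at each step. Of all 20672 genes, 2963 were lower at each step, 6271 higher and then lower, 7119 lower and then higher, and 4316 higher at each step. With no overlap at either step, 5 of the 42 genes, Nop14, Tsr1, Nop16, Gnl3 and Rrp1b, were ordered shGFP over shFoxk1 over rescue, as were 157 of all genes. Gnl3, the GTPase nucleostemin, read 12.57, 12.56 and 12.61, then 12.55, 12.52 and 12.50, then 12.48, 12.39 and 12.42 (rescue against shGFP -0.15, SE 0.04, adjusted p = 0.0941).

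Among RNA polymerase I and its initiation factors, 0 of 5 genes passed in any of the 3 comparisons, and the medians were -0.03 in shFoxk1 against shGFP, -0.01 in rescue against shFoxk1 and -0.02 in rescue against shGFP. Polr1b, the second-largest catalytic subunit, read 9.43, 9.34 and 9.45 on the shGFP arrays, 9.48, 9.44 and 9.41 on the shFoxk1 arrays and 9.41, 9.36 and 9.40 on the rescue arrays. The groups overlapped throughout, with log2 changes of 0.04 and -0.05 for the 2 steps (SE 0.05, adjusted p = 0.770 and 0.653). Polr1c, shared with RNA polymerase III, read 11.58, 11.58 and 11.59 in shGFP, 11.59, 11.59 and 11.59 in shFoxk1 and 11.59, 11.55 and 11.61 in rescue, with no shift between groups. Polr1a, the largest subunit, ranged from 9.46 to 9.64, with both ends among the shFoxk1 arrays, while a second set of nearly the same brightness, 1460215_at, had -0.31 in rescue against shGFP and did not pass (adjusted p over all probe sets = 0.0920).

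Rrn3, which carries the polymerase to the promoter, had the largest change of the 5 in rescue against shGFP. It read 10.21, 10.11 and 10.13 in shGFP, 10.06, 9.99 and 10.11 in shFoxk1 and 10.06, 9.96 and 9.92 in rescue. Every rescue array was below every shGFP array, but the log2 change of -0.17 (SE 0.06) had an adjusted p of 0.129. Ubtf, the DNA-bending factor of ribosomal DNA, read 10.96, 11.06 and 11.08 in shGFP, 10.87, 11.02 and 10.94 in shFoxk1 and 10.96, 11.14 and 11.03 in rescue on its brightest probe set. These groups overlapped (0.01 for rescue against shGFP, SE 0.06, adjusted p = 0.935), and a second Ubtf probe set described further on did not behave alike.

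In the box C/D snoRNPs, which guide ribose methylation, Nop56 fell in rescue against shGFP. The core protein Nop56 read 12.93, 12.99 and 12.97 in shGFP, 12.79, 12.79 and 12.87 in shFoxk1 and 12.77, 12.80 and 12.78 in rescue. Both Foxk1 hairpin groups lay wholly below shGFP and overlapped each other. The log2 change was -0.15 in shFoxk1 (SE 0.05, adjusted p = 0.111), -0.04 in rescue against shFoxk1 (adjusted p = 0.766) and -0.18 in rescue against shGFP (adjusted p = 0.0460). A second Nop56 set nearly as bright, 1455035_s_at, had its larger change at the other step, with -0.01 in shFoxk1, -0.11 from there to rescue and -0.12 in rescue against shGFP, none past the test. Its partner Nop58 showed a change of -0.16 in rescue against shGFP (adjusted p = 0.0783) with groups apart, while the methyltransferase Fbl showed -0.02 with groups that overlapped.

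The 4 box H/ACA proteins, which carry out pseudouridylation, had 0 calls and a median of -0.07 in rescue against shGFP. Dkc1, the pseudouridine synthase, read 12.82, 12.81 and 12.80 in shGFP, 12.83, 12.86 and 12.85 in shFoxk1 and 12.75, 12.70 and 12.76 in rescue. It was the gene whose shFoxk1 arrays lay wholly above shGFP, and its rescue arrays lay wholly below both (changes 0.03, -0.10 and -0.07, SE 0.04, adjusted p = 0.770, 0.311 and 0.427). Nhp2 read 13.84, 13.85 and 13.83 in shGFP, 13.75, 13.78 and 13.70 in shFoxk1 and 13.76, 13.85 and 13.70 in rescue. The shFoxk1 arrays of Nhp2 were all below shGFP, and rescue array 2 returned into the shGFP range while the other 2 did not. Nop10 read 12.80, 12.69 and 12.73, then 12.75, 12.90 and 12.79, then 12.75, 12.85 and 12.73, with overlap throughout and the highest change of the 42 in rescue against shGFP (0.04, adjusted p = 0.796). Gar1 had a change of -0.09 (adjusted p = 0.312), with its shGFP arrays wholly above both other groups.

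The small subunit factors held most of the calls, but their median change was close to that of the large subunit factors. Of 12 genes, 4 fell in rescue against shGFP, beside 2.54% of all genes and 4.9% in the same range of levels. All 12 were lower in the mean (43% and 52.6%), and 9 lay apart (10.3% and 22%). The median was -0.16 (range -0.30 to -0.08), beside -0.15 for the large subunit factors. In shFoxk1 against shGFP 0 of 12 passed (median -0.05), and in rescue against shFoxk1 0 of 12 passed (median -0.12).

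Rrp12, an export factor of the young small subunit in yeast, read 9.83, 9.82 and 9.75 in shGFP, 9.48, 9.78 and 9.59 in shFoxk1 and 9.55, 9.50 and 9.44 in rescue. Its rescue arrays were all below shGFP, and shFoxk1 array 2 reached the shGFP range. Rrp12 had the largest fall of the 42 in rescue against shGFP, -0.30 (SE 0.07, adjusted p = 0.0393), after -0.18 in shFoxk1 (adjusted p = 0.222) and -0.12 from shFoxk1 to rescue (adjusted p = 0.495). Its change in shFoxk1 rested on single arrays: it was -0.26 and called without shFoxk1 array 2 (adjusted p = 0.0453), and -0.12 without shFoxk1 array 1 (adjusted p = 0.541). Nop14, which binds Noc4l in yeast, read 10.47, 10.54 and 10.55 in shGFP, 10.42, 10.42 and 10.47 in shFoxk1 and 10.32, 10.32 and 10.27 in rescue. Its 3 groups stood in that order without overlap, the fall in rescue against shGFP was -0.22 (SE 0.04, adjusted p = 0.0201), and the 2 steps were -0.08 and -0.14 (adjusted p = 0.409 and 0.234).

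Tsr1, a late factor of the small subunit, read 12.21, 12.14 and 12.14 in shGFP, 12.08, 12.12 and 12.09 in shFoxk1 and 11.99, 11.99 and 11.91 in rescue. These groups too were ordered without overlap, with -0.20 in rescue against shGFP (SE 0.05, adjusted p = 0.0343) and steps of -0.07 and -0.13 (adjusted p = 0.510 and 0.260). Wdr43, part of the complex that links transcription to early processing, read 11.71, 11.70 and 11.67 in shGFP, 11.53, 11.56 and 11.52 in shFoxk1 and 11.46, 11.56 and 11.50 in rescue. On this probe set both Foxk1 hairpin groups of Wdr43 were below shGFP and overlapped each other, with -0.16 in shFoxk1 (SE 0.05, adjusted p = 0.0875), -0.03 at the second step and -0.19 in rescue against shGFP (adjusted p = 0.0406). The dimmer set 1428389_s_at of Wdr43 differed in where the steps lay, with 0.01 in shFoxk1 and -0.19 from there to rescue, neither past the test.

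On their brightest sets Utp20, Heatr1 and Noc4l, described next, had the larger difference at the second step. So did Nop14, Tsr1, Wdr3, Utp18 and Nob1. Utp20, a large scaffold protein, read 11.17, 11.13 and 11.13 in shGFP, 11.20, 11.19 and 11.13 in shFoxk1 and 11.04, 10.97 and 10.95 in rescue. Heatr1, of the same early complex as Wdr43, read 10.27, 10.30 and 10.30, then 10.26, 10.36 and 10.26, then 10.20, 10.08 and 10.12. Noc4l, the partner of Nop14, read 10.77, 10.78 and 10.73, then 10.77, 10.73 and 10.80, then 10.64, 10.59 and 10.59. In Utp20, Heatr1, Noc4l and also Utp18 the shGFP and shFoxk1 arrays overlapped and the rescue arrays lay below both. The changes from shFoxk1 to rescue were -0.18 for Utp20 (SE 0.05, adjusted p = 0.123) and -0.17 for Heatr1 (SE 0.05, adjusted p = 0.199). They were -0.16 for Noc4l (SE 0.04, adjusted p = 0.156) and -0.14 for Utp18 (SE 0.05, adjusted p = 0.234), none past the test.

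Rrp9 went partly the other way in the mean, and Bysl hardly changed from shFoxk1 to rescue. Rrp9, a snoRNP protein of early cleavage, read 9.93, 10.15 and 10.06 in shGFP, 9.79, 10.00 and 9.78 in shFoxk1 and 9.83, 10.01 and 9.96 in rescue. Its groups overlapped at each step, with -0.19 in shFoxk1 (SE 0.08, adjusted p = 0.248) and 0.07 to rescue (adjusted p = 0.710). Bysl, which acts on the late precursor, read 10.90, 10.94 and 10.98, then 10.86, 10.94 and 10.76, then 10.84, 10.92 and 10.80, again with overlap (-0.09 and 0.00, adjusted p = 0.494 and 0.984). The other 3, Wdr3, Utp18 and Nob1, changed by -0.14, -0.16 and -0.08 in rescue against shGFP (adjusted p = 0.190, 0.0861 and 0.451).

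Of the 13 large subunit factors, 1, Nop16, fell in rescue against shGFP, beside 2.54% of all genes and 4.9% in the same range of levels. The mean was lower in 12 (43% and 52.6%), and 9 lay apart (10.3% and 22%), with a median of -0.15. Nop16 read 10.64, 10.75 and 10.59 in shGFP, 10.49, 10.56 and 10.49 in shFoxk1 and 10.39, 10.43 and 10.46 in rescue. The 3 groups did not overlap, and the change was -0.23 in rescue against shGFP (SE 0.05, adjusted p = 0.0307) after steps of -0.15 and -0.09 (adjusted p = 0.178 and 0.494).

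Pes1, Bop1 and Wdr12 form 1 complex and did not share a profile on their brightest sets. Bop1 read 10.84, 10.95 and 10.94 in shGFP, 10.60, 10.91 and 10.65 in shFoxk1 and 10.71, 10.92 and 10.76 in rescue. In Bop1 array 2 of shFoxk1 and of rescue stood above the other 2 of its group, so its change of -0.19 in shFoxk1 had an SE of 0.08 and an adjusted p of 0.293. Wdr12 changed by -0.17 in rescue against shGFP with groups apart (adjusted p = 0.05998), and Pes1 by -0.01 with overlap (adjusted p = 0.966). A dimmer set of Bop1 and a dimmer set of Wdr12, given further on, fell past the test in that comparison. With the sets of each gene averaged, Bop1 and Wdr12 were both called there and Pes1 was not.

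Nop2, an RNA methyltransferase of the large subunit RNA, read 10.31, 10.38 and 10.39 in shGFP, 10.10, 10.25 and 10.23 in shFoxk1 and 10.16, 10.25 and 10.24 in rescue. Both Foxk1 hairpin groups were below shGFP and overlapped each other (-0.17 in shFoxk1, SE 0.05, adjusted p = 0.129, then 0.02). Ftsj3, another methyltransferase, read 10.58, 10.56 and 10.59, then 10.63, 10.57 and 10.73, then 10.45, 10.37 and 10.46. The rescue arrays of Ftsj3 lay below all others, with the smallest adjusted p of the second step (-0.21, SE 0.05, adjusted p = 0.109) after 0.06 in shFoxk1 (adjusted p = 0.599).

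Rrs1, which brings a small RNA particle to the large subunit in yeast, read 12.24, 12.18 and 12.25 in shGFP, 12.17, 11.96 and 12.15 in shFoxk1 and 12.05, 11.85 and 12.15 in rescue. Both Foxk1 hairpin groups lay below shGFP with array 2 lowest in each, and the change of -0.21 in rescue against shGFP had an SE of 0.08 (adjusted p = 0.199), -0.13 without rescue array 2. The set 1416998_at, which stood for Rrs1 where sets ending in _x_at or _s_at were left out, was called there (-0.31, adjusted p = 0.00618). Noc3l read 8.93, 8.94 and 8.995 in shGFP, 9.04, 9.08 and 8.94 in shFoxk1 and 8.96 on each rescue array. On this set Noc3l thus showed no fall in rescue against shGFP (0.07, -0.06 and 0.01, SE 0.05, adjusted p = 0.581, 0.632 and 0.966). Its dimmer set 1437500_at had 0.02 in shFoxk1 and -0.20 from there to rescue, neither past the test. Ebna1bp2, Noc2l, Wdr74 and Rrp1b changed by -0.11, -0.09, -0.01 and -0.17 in rescue against shGFP (adjusted p = 0.262, 0.370, 0.938 and 0.0651).

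The abundant nucleolar proteins had 0 calls among 5 genes. Nolc1, a chaperone of snoRNPs, read 12.48, 12.55 and 12.53 in shGFP, 12.49, 12.47 and 12.58 in shFoxk1 and 12.37, 12.39 and 12.33 in rescue. Its rescue arrays lay below all others (-0.15 from shFoxk1, SE 0.05, adjusted p = 0.225, and -0.16 from shGFP, adjusted p = 0.107). Ddx21, an RNA helicase, read 11.25, 11.14 and 11.21, then 11.24, 11.23 and 11.54, then 11.07, 10.92 and 11.20. Its widest difference rested on shFoxk1 array 3: the change was 0.13 in shFoxk1 (SE 0.09, adjusted p = 0.533) and -0.27 from there to rescue (adjusted p = 0.245), -0.17 at the smallest when 1 array was left out. On their brightest sets nucleolin (Ncl), nucleophosmin (Npm1) and Mybbp1a changed by -0.01, -0.03 and -0.07 in rescue against shGFP (adjusted p = 0.902, 0.792 and 0.478). Some dimmer sets changed more in shFoxk1 and then to rescue, none past the test. Of Ncl, 1415773_at had -0.24 and -0.14, 1415772_at -0.03 and -0.13, and 1456528_x_at 0.02 and -0.04. The Mybbp1a set 1423430_at had -0.26 and 0.02, and the Npm1 set 1432416_a_at -0.08 and -0.04.

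**Figure D3:**
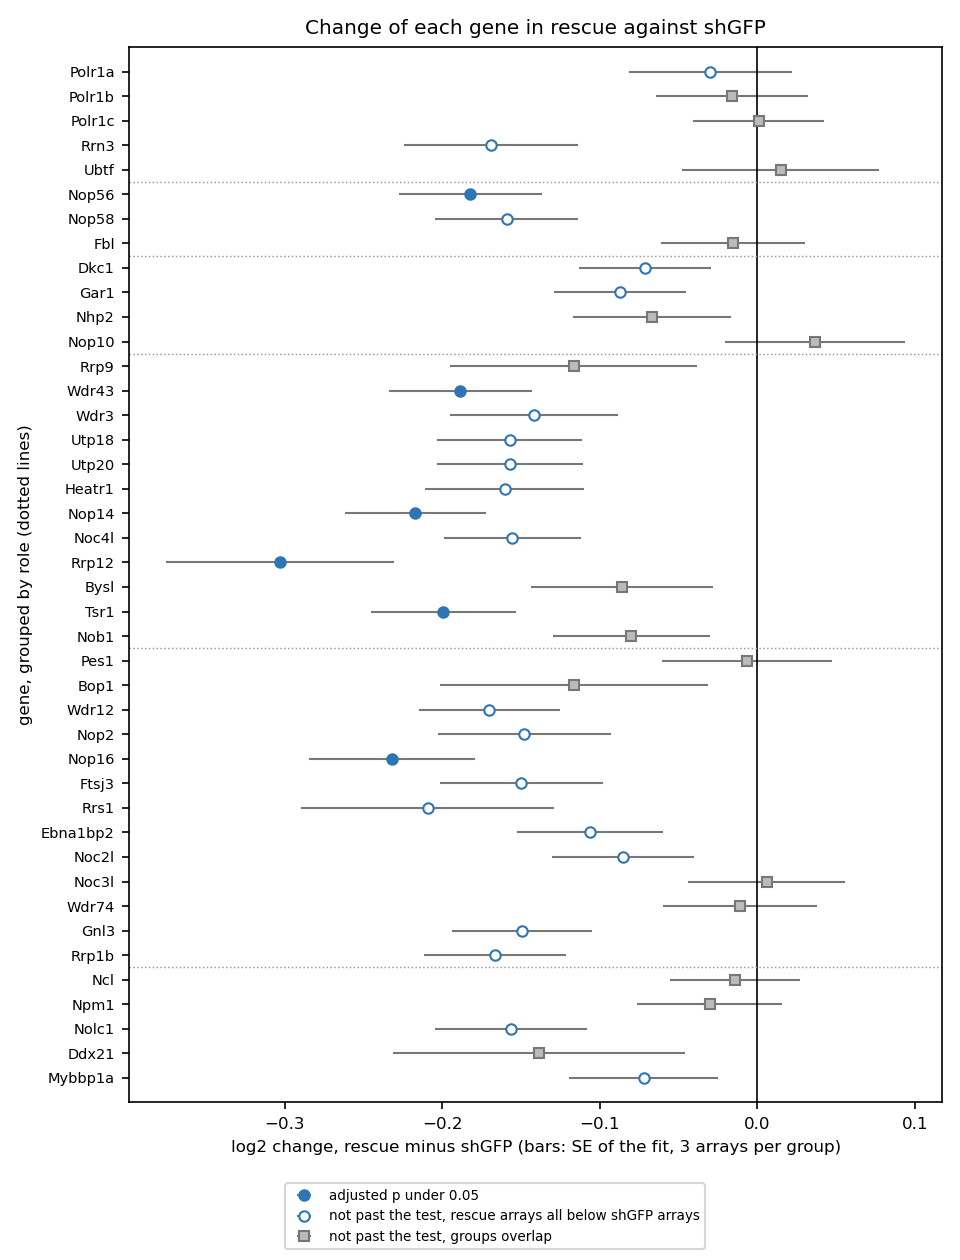
Log2 change in rescue against shGFP (horizontal axis, bars are the SE of the fit) for each of the 42 genes (vertical axis, grouped by role with dotted lines). Filled circles are the 6 genes past the test, open circles are genes whose 3 rescue arrays all lay below the 3 shGFP arrays without passing, and squares are genes whose groups overlapped. The small and large subunit factors hold 18 of the 26 genes that lay apart.

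How many of the 42 genes passed in rescue against shGFP rested on the arrays and on how the spread was estimated, though every call in every setting was in the lower direction. Leaving out 1 array at a time gave 0 to 6 calls: 0 without shGFP array 2 or rescue array 3, 1 without shGFP array 1 or 3, 2 without shFoxk1 array 1 or rescue array 1 or 2, 3 without shFoxk1 array 3 and 6 without shFoxk1 array 2, beside 1.33% to 2.6% of all genes called lower in these fits. Of the 9 fits without 1 array, Nop14 lost its call in 3 (adjusted p = 0.0822 to 0.0843), Nop16 in 6 (0.0510 to 0.115), and Rrp12 (0.0513 to 0.141), Tsr1 (0.0502 to 0.135), Wdr43 (0.0568 to 0.136) and Nop56 (0.0722 to 0.150) in 7 each. A fit restricted to genes at or above the median level, which all 42 were, called 16, beside 8.35% of all genes lower in that fit, a variance that followed the level called 17, beside 4.17%, array weights called 10, beside 3.58%, and centring each array on its median called 11, beside 3.73%. Adjusting over all probe sets left 2 calls, with Rrp12, Tsr1, Wdr43 and Nop56 at an adjusted p of 0.0538 to 0.0731, and fitting only the 6 arrays compared left 2, beside 1.87%, with Nop56, Nop16, Tsr1 and Wdr43 at 0.0653 to 0.0770. Averaged over its probe sets, Nop16 had a change of -0.18 (adjusted p = 0.116). Averaging the sets of each gene called 11, beside 2.94%, 5 of them among the 6. Both probe sets of Tsr1 end in _s_at, so it was not tested where sets ending in _x_at or _s_at were left out, and there 6 of 40 genes tested were called, beside 2.46%: the other 5 and Rrs1. In shFoxk1 against shGFP the restricted fit called 3 lower (Nop56, Wdr43 and Nop2, beside 7.69% of genes), and in rescue against shFoxk1 it called 3 lower (Utp20, Noc4l and Ftsj3, beside 1.55%). The variance that followed the level called 3 (beside 3.83% of genes) and 4 (beside 0.992%) in these comparisons. Array weights called 2, Wdr43 and Nop2, in shFoxk1 against shGFP (beside 3.86%), and averaging the sets of each gene called 1, Ubtf (beside 2.4%).

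The dimmer probe sets of the same genes were read separately. There were 40 of them, for 28 of the 42 genes, and in rescue against shGFP 37 of the 40 were lower in the mean, with a median of -0.15, beside 51.4% lower of all 17417 probe sets that are not the brightest of their gene. In rescue against shFoxk1 37 of 40 were lower (median -0.09), beside 50.9%, and in shFoxk1 against shGFP 24 of 40 (median -0.04), beside 52.1%. With all 45101 probe sets tested together, 4 of the 40 fell in rescue against shGFP, beside 2.21% of all probe sets, and 2 of the 42 brightest did, those of Nop14 and Nop16. The authors' deposited tables, which cover the other 2 comparisons, list 0 of these genes' 82 probe sets under an adjusted p of 0.05, with smallest values of 0.0552 and 0.0905, beside 2.74% of all probe sets in shFoxk1 against shGFP and 0.377% in rescue against shFoxk1.

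The Ubtf probe set 1460304_a_at was the 1 with a large change. It read 9.88, 10.12 and 10.05 in shGFP, 9.38, 9.24 and 9.79 in shFoxk1 and 9.26, 9.08 and 8.98 in rescue. Rescue lay wholly below shGFP by 1.88-fold (log2 change -0.91, SE 0.13, limma adjusted p over all probe sets = 0.00369), and shFoxk1 stood between them, overlapping neither shGFP nor, apart from array 2, rescue (-0.54, adjusted p = 0.0552, then -0.37, adjusted p = 0.303). The brighter set 1453097_a_at of the same gene showed 0.01 in rescue against shGFP. The transcripts that each Ubtf set detects were not known here, so a change of 1 isoform and a change of the gene cannot be told apart. The other 3 dimmer sets that fell were 1417270_at for Wdr12 (-0.46, adjusted p = 0.00245), 1430491_at for Bop1 (-0.38, adjusted p = 0.0294) and 1416998_at for Rrs1 (-0.31, adjusted p = 0.00986). The brightest sets of Wdr12, Bop1 and Rrs1 were lower in the mean as well but did not pass.

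**Figure D4:**
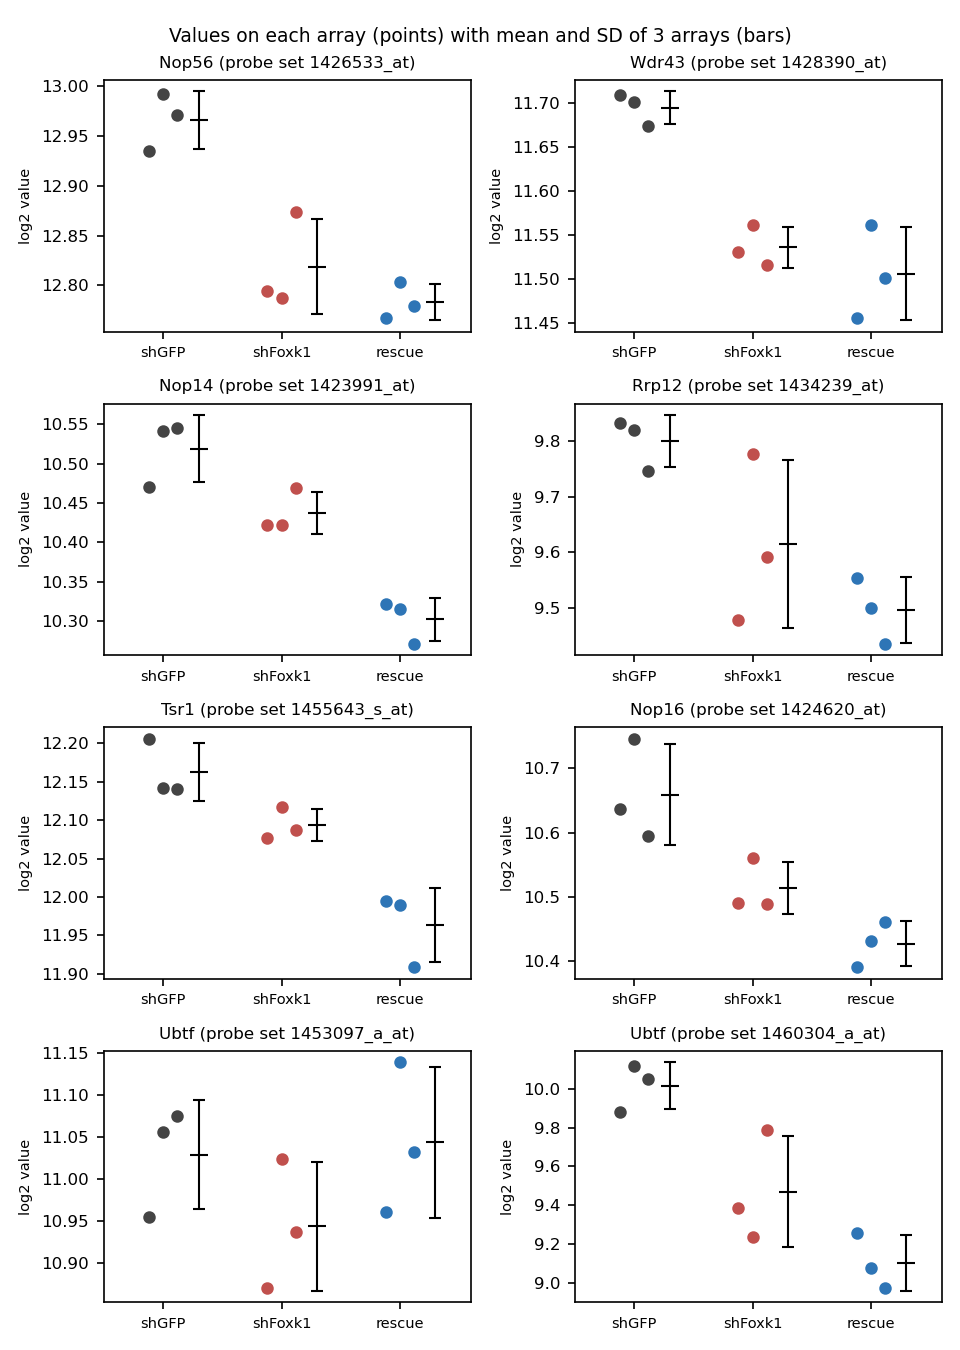
Log2 values (vertical axis) on each array (points) with the mean and SD of 3 arrays (bars) in shGFP, shFoxk1 and rescue, for the 6 genes that fell in rescue against shGFP and for both Ubtf probe sets. Axes differ between panels and do not start at 0. Each of the 6 genes has its rescue points below its shGFP points, and the Ubtf sets differ, with no shift in 1453097_a_at and 1.88-fold lower rescue in 1460304_a_at.

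The rest of the machinery was read from lists of 111 further ribosome biogenesis genes, 107 of them measured. In rescue against shGFP 5 fell and 0 rose. Of all genes 2.54% were called lower and 2.5% higher in that comparison, and 4.9% lower in the range of levels used above. The mean was lower in 84 of the 107, beside 43% of all genes and 52.6% in that range of levels. The median was -0.07. By role, 0 of 13 other polymerase I genes, 2 of 37 other small subunit factors, 2 of 37 other large subunit factors, 1 of 8 snoRNP assembly factors and 0 of 12 exosome genes fell. The small subunit genes were Mphosph10 (-0.26, SE 0.05, adjusted p = 0.00936) and Wdr75 (-0.21, adjusted p = 0.0393), the large subunit genes Rsl1d1 (-0.32, SE 0.05, adjusted p = 0.00732) and Sdad1 (-0.34, adjusted p = 0.0403), and the fifth was Tcof1, the treacle protein of ribosomal DNA transcription (-0.18, adjusted p = 0.0426). Mphosph10 and Rsl1d1 kept their call in all 9 fits without 1 array, while Wdr75 lost it in 7, Sdad1 in 6 and Tcof1 in 8 of 9. Over all probe sets, or with only the 6 arrays compared, these 3 did not pass (adjusted p = 0.0536 to 0.0797). Averaged over their probe sets Wdr75 had -0.13 (adjusted p = 0.330) and Tcof1 -0.18 (adjusted p = 0.0835).

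In the other 2 comparisons these lists held 1 call each. Of all genes 0.3% were called lower in rescue against shFoxk1 and 1.97% higher in shFoxk1 against shGFP. Taf1d, a subunit of the polymerase I selectivity factor, read 10.04, 9.85 and 9.98 in shGFP, 10.24, 10.11 and 10.33 in shFoxk1 and 9.88, 9.58 and 9.84 in rescue. The shFoxk1 arrays were highest, and the fall to rescue was -0.46 (SE 0.09, adjusted p = 0.0434), lost in 7 of 9 fits without 1 array (adjusted p up to 0.179). Averaged over its probe sets Taf1d had -0.23 (adjusted p = 0.168), and it did not pass over all probe sets (0.0733) or with only the 6 arrays compared (0.125). Gnl3l, a relative of Gnl3, was higher in shFoxk1 than in shGFP (0.19, SE 0.05, adjusted p = 0.0448) and lost its call in each of the 9 fits. Averaged over its probe sets it had 0.08 (adjusted p = 0.513). Of 79 cytosolic ribosomal proteins, which these factors assemble into ribosomes, 53 were measured. They had 0 calls in each comparison in limma, beside 0.3% to 2.54% of all genes per direction. At an unadjusted p under 0.05, 1 was higher and 0 lower in shFoxk1 against shGFP (8.46% and 8.34% of all genes). The counts were 0 and 1 in rescue against shFoxk1 (7.95% and 5.85%) and 0 and 0 in rescue against shGFP (9.84% and 8.13%). The medians of the ribosomal proteins were 0.01, -0.01 and 0.00, beside -0.03, -0.06 and -0.13 for the 42 ribosome biogenesis genes.

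Genes of the MYC network, whose proteins bind the E-box shown above, changed in both Foxk1 hairpin groups. Myc read 10.98, 10.89 and 10.88 in shGFP, 10.96, 10.95 and 10.86 in shFoxk1 and 10.70, 10.67 and 10.72 in rescue. Its rescue arrays lay below all others, with -0.22 against shGFP (SE 0.05, adjusted p = 0.0309) and -0.22 against shFoxk1 (adjusted p = 0.0726), and shFoxk1 did not differ from shGFP past the test (0.01, adjusted p = 0.959). The call of Myc against shGFP was lost without any 1 of the shGFP or rescue arrays (adjusted p = 0.0616 to 0.125) and with only the 6 arrays compared (0.0513). Against shFoxk1, Myc passed with a variance that followed the level (limma adjusted p = 0.00868), the restricted fit (0.0188) and array weights (0.0497). It passed there in none of the 9 fits without 1 array (0.0918 to 0.277).

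Of the 11 network genes measured, 2 rose and 2 fell in shFoxk1 against shGFP, 0 passed in rescue against shFoxk1, and 2 rose and 3 fell in rescue against shGFP. Of all genes 1.97% rose and 2.26% fell in the first of these comparisons, 0.653% and 0.3% in the second, and 2.5% and 2.54% in the third. Mxi1, a repressor that pairs with MAX, read 9.54, 9.51 and 9.61 in shGFP, 9.88, 9.85 and 9.76 in shFoxk1 and 10.10, 10.02 and 10.10 in rescue. Mxi1 rose without overlap, by 0.28 in shFoxk1 (SE 0.05, adjusted p = 0.0120, lost without shGFP array 2 or shFoxk1 array 1) and by 0.52 in rescue against shGFP (adjusted p = 0.000336, kept in all 9 fits). Mnt, another MAX-binding repressor, rose by 0.31 (adjusted p = 0.00874) and 0.23 (adjusted p = 0.0300), the latter lost in 5 of 9 fits, with centring (adjusted p = 0.103) and with only the 6 arrays compared (0.0668). Mycn read 8.19, 8.14 and 8.20, then 8.005, 7.94 and 7.87, then 7.85, 7.75 and 7.81. It fell by 0.24 on the log2 scale in shFoxk1 (adjusted p = 0.0267, lost in 5 of 9 fits) and by 0.38 in rescue against shGFP (adjusted p = 0.00213). Mlx, which pairs with glucose-responsive partners, fell by 0.48 (adjusted p = 0.000505) and by 0.36 (adjusted p = 0.00265). Averaged over all of a gene's probe sets, Mxi1 in rescue against shGFP and Mlx in both comparisons passed, but Mycn had -0.14 and -0.05 (adjusted p = 0.238 and 0.718), Mnt 0.11 and 0.10 (adjusted p = 0.251 and 0.291) and Mxi1 0.21 in shFoxk1 (adjusted p = 0.150).

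**Figure D5:**
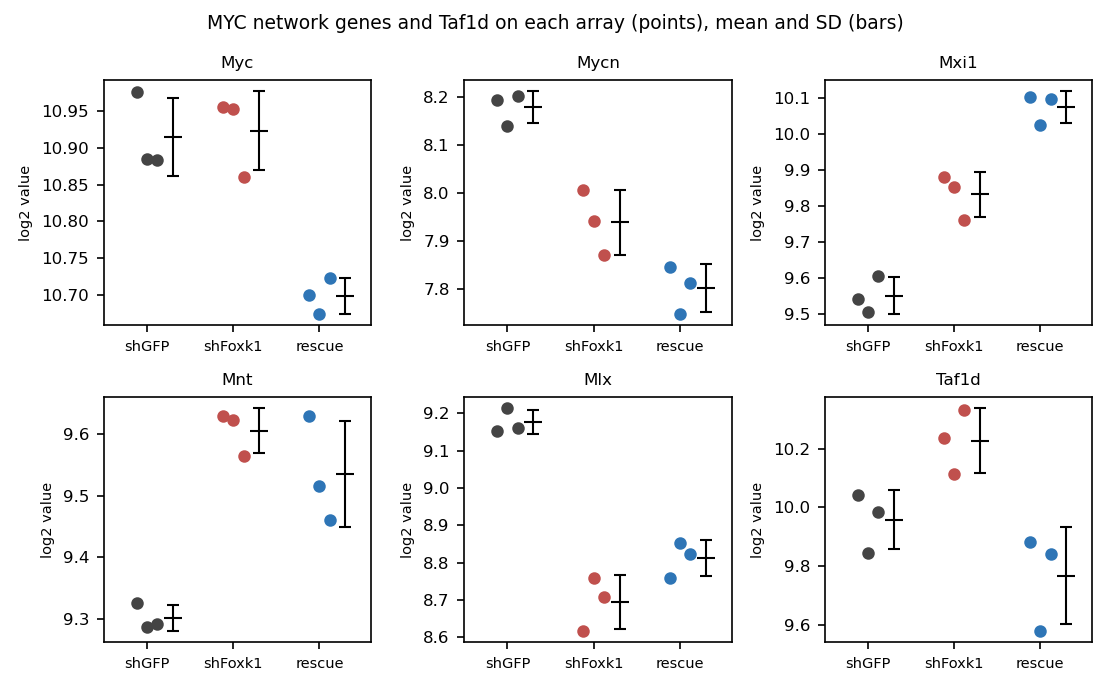
Log2 values (vertical axis) on each array (points) with mean and SD of 3 arrays (bars) for Myc, Mycn, Mxi1, Mnt, Mlx and Taf1d in shGFP, shFoxk1 and rescue. Axes differ between panels and do not start at 0. The rescue points of Myc lie below its other points, Mycn and Mlx are lower and Mxi1 and Mnt higher in both Foxk1 hairpin groups, and Taf1d is highest in shFoxk1.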

How the data were processed

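Expression was measured in 9 MEF samples, 3 per group, on arrays with Affymetrix-style identifiers. The authors deposited log2 values per probe set, made with RMA in affy per the submitters' processing notes, which name no version. The authors' deposited tables of 2 comparisons also hold a log2 fold change, p-values and, as a score, t and B, per the file headers. Of 45101 probe sets, 64 were array controls and 6948 others carry no symbol. The brightest probe set stood for each of 20672 genes. Symbols were updated through RefSeq's GRCm38.p6 gene table, which held the identifier of 35121 of 38089 named probe sets. limma 3.58.1 in R 4.3.3 (lmFit, eBayes) fitted 3 group means over all 9 arrays without covariates, leaving 6 residual degrees of freedom, with two-sided tests called at an adjusted p under 0.05 over all genes. Only 3 arrays per group limit the precision. The code was tested on simulated data.

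The genes and all lists were chosen with earlier results of these data known. Values on every array are given for called genes among the 42 and their 6 largest rises and falls in each comparison. Myc and the called genes of other lists, where 6 or fewer, are named. Of the 42 genes, 7 rest on probe sets ending in _x_at or _s_at, which can match more than 1 transcript: Polr1c, Fbl, Gar1, Nhp2, Noc4l, Tsr1 and Rrs1. Alternatives changed the variance estimate, array weights, filter, probe set, arrays fitted, centring, replicate block and arrays left out. Old symbols in the files were Twistnb, Cd3eap and Znrd1 for Polr1f, Polr1g and Polr1h.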

Additional observations from a re-analysis of the deposited data

How the results depend on the processing

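The number of the 42 genes called, given here in the order of shFoxk1 to shGFP, rescue to shFoxk1, and rescue to shGFP (0, 0 and 6 as reported), was 3, 4 and 17 with a trended, robust variance, 2, 0 and 10 with array weights, 3, 3 and 16 with the filter on low values, and 1, 0 and 11 with the mean of all probe sets. It was 0, 0 and 2 with all probe sets tested or only the 6 arrays compared, 0, 0 and 11 with each array centred on its median, and 0, 0 and 6 of 40 tested without _x_at and _s_at sets. Without 1 array the ranges were 0 to 1, 0 to 0 and 0 to 6. An alternative chosen after seeing the data, the filter without rescue array 2, gave 3, 0 and 9. All calls were lower. With the filter and without rescue array 2, 7.95% and 5.82% of all genes were called lower in the first and last comparison. With the filter fewer genes were tested and the variance was estimated anew over them, and the part of each in the calls was not tested. For the other settings the cause was not tested. The 6 calls were kept under the trended variance, weights, filter, centring and block.

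The median changes were -0.0532, -0.0908 and -0.147 with the mean of all probe sets, -0.0567, -0.0793 and -0.174 with centring, and ranged without 1 array from -0.0488 to -0.0300, -0.0678 to -0.0448 and -0.130 to -0.111.

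Small values changed sign in some settings. With array weights, Bysl was at -0.0103 in rescue against shFoxk1. With the mean of all probe sets, Dkc1 was at -0.0071 in shFoxk1 against shGFP. In rescue against shFoxk1, Ubtf was then at -0.133, Bop1 at -0.118, Nhp2 at -0.0192 and Bysl at -0.0405. In rescue against shGFP, Ubtf was then at -0.447 (limma adjusted p = 0.00526), Noc3l at -0.0847 and Polr1c at -0.0106. Without _x_at and _s_at sets, Nhp2 was at -0.0668 and Polr1c at -0.0223. With centring, Nop2 was at -0.0011 and Bysl at -0.0187 in rescue against shFoxk1, Nop10 at -0.0097, Ubtf at -0.0317, Noc3l at -0.0405 and Polr1c at -0.0455 in rescue against shGFP, and Myc at -0.0154 in shFoxk1 against shGFP. With the filter and without rescue array 2, Nhp2 was at -0.0100, Bysl at -0.0297 and Ubtf at -0.0326. Without 1 array, the ranges that include 0 were -0.0326 to 0.0563 for Ubtf, -0.0081 to 0.0260 for Noc3l and -0.0138 to 0.0170 for Polr1c in rescue against shGFP. They were -0.0243 to 0.0518 for Nop2, -0.0427 to 0.0484 for Bysl, -0.0100 to 0.0625 for Nhp2 and -0.0523 to 0.110 for Foxk1 in rescue against shFoxk1, and -0.0084 to 0.0393 for Myc in shFoxk1 against shGFP.

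Same-numbered arrays of different groups deviated together weakly, with a correlation above 0.1 in 7 of 9 pairs (0.0598 to 0.230), so the numbers were not taken to pair the samples, although each of the 9 arrays correlated best with its own number. With the replicate block the counts of the 42 genes were 0, 0 and 6, beside 2.98% of all genes in the last. Of the other lists, Wdr75 and Sdad1 in rescue against shGFP (limma adjusted p = 0.0505 and 0.0641) and Gnl3l in shFoxk1 against shGFP (0.0542) then missed the threshold, and no other named call changed. The 3 pairs of shFoxk1 and rescue arrays were each above 0.1.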

Other observations

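RNA polymerase III, which makes the smallest ribosomal RNA and the transfer RNAs, was read from a list of 21 genes. Maf1, its repressor, read 11.07, 11.12 and 11.13 in shGFP, 11.38, 11.49 and 11.33 in shFoxk1 and 11.39, 11.43 and 11.38 in rescue. Maf1 was higher without overlap in both Foxk1 hairpin groups, by 0.30 in shFoxk1 (SE 0.05, limma adjusted p = 0.00955) and 0.29 in rescue against shGFP (adjusted p = 0.00917), and kept both calls in all 9 fits without 1 array. The first of these was lost where sets ending in _x_at or _s_at were left out (0.28, adjusted p = 0.0502). The subunit Polr3e fell in rescue against shGFP (-0.27, SE 0.05, adjusted p = 0.00753), and the subunit Polr3k fell in shFoxk1 against shGFP (-0.22, adjusted p = 0.0435, lost in 7 of 9 fits). Averaged over their probe sets neither passed, with -0.12 for Polr3e (adjusted p = 0.190) and -0.10 for Polr3k (adjusted p = 0.223). Polr3k also lost its call over all probe sets and with only the 6 arrays compared (adjusted p = 0.0680 and 0.0565). In shFoxk1 against shGFP and in rescue against shGFP, 1 of the 21 genes was called higher, 1 lower and 19 did not pass. Of all genes 1.97% were called higher and 2.26% lower in the first of these, and 2.5% and 2.54% in the second. The medians of the list were 0.00, -0.06 and -0.04 in the order of shFoxk1 to shGFP, rescue to shFoxk1, and rescue to shGFP. In rescue against shFoxk1 0 of the 21 passed in limma, beside 0.653% of all genes called higher and 0.3% lower. At an unadjusted p under 0.05, 0 of the 21 were higher and 5 lower, beside 7.95% and 5.85% of all genes.

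The RNA exosome, which trims the ends of ribosomal RNA precursors, had 0 calls among 12 genes in each comparison in limma, with medians of -0.01, -0.04 and -0.05. The shares of all genes called are those given for RNA polymerase III. At an unadjusted p under 0.05 the exosome counts were 2 higher and 2 lower in shFoxk1 against shGFP (8.46% and 8.34% of all genes). They were 0 and 0 in rescue against shFoxk1 (7.95% and 5.85%), and 1 and 2 in rescue against shGFP (9.84% and 8.13%).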
